A study of Arabidopsis thaliana with 12 samples.

Results

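Transcript levels on the morning side of the daily cycle (harvests at 6am and 12pm) were compared with those on the evening side (6pm and 12am) in the aerial part of Arabidopsis thaliana seedlings. Each side pairs a harvest at or before the change of light with one after it: 12pm and 6pm lay in the light, 6am at lights on, and 12am in the dark. A transcript that is high at both times of one side and low at both times of the other therefore keeps its side of the day across the light change. The members were the non-control probe sets with a log2 value of at least 4 on 3 or more of the 12 arrays, which were 14185 of 22746. The difference given is the mean of the 6am and 12pm means minus the mean of the 6pm and 12am means.

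The plants were 10-day-old wild type of the Columbia ecotype, kept on sucrose agar with a photoperiod of 16 h and a night of 8 h. The 4 groups of 3 arrays were harvested 0 h (6am), 6 h (12pm), 12 h (6pm) and 18 h (12am) after lights on. Genotype, age and medium were the same in all 4 groups, so the sides differ by time of harvest. Total RNA was hybridised to 1-colour Affymetrix arrays. The labels do not say that replicates were separate cultures, so p-values reflect only how much these samples vary, and that variation may be technical. The sampled aerial part is a mixture of cell types, in which fewer cells of a type and less RNA per cell cannot be told apart.

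Plants time their transcription with a circadian clock, a network of transcription factors that repress and activate each other in a fixed daily order. Light acts on the same genes through photoreceptors such as the phytochromes. A transcript can therefore follow the light, follow the clock, or do both, and many metabolic genes have their daily maximum near dawn or near dusk.

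The arrays held leaf transcripts on both sides. RCA, which activates Rubisco, lay between 12.83 and 13.67 on the 12 arrays, and the Calvin cycle enzymes SBPASE and PRK lay between 13.11 and 13.68. PYK10, a beta-glucosidase used as a root marker, also lay between 11.19 and 12.05, with both sides overlapping. The other root markers with a named probe set, AGL42 and EXPA7, went the other way. They lay at or near the floor of the data on all 12 arrays and were not among the tested members. Replicate 1 stood apart at every time: its correlation with replicates 2 and 3 was 0.9673 to 0.984, against 0.9856 to 0.9966 between those. The median of 67 plastid-encoded probe sets was 9.14 to 10.1 in replicate 1 and 10.9 to 11.4 in replicates 2 and 3, on both sides. Counts that changed by over 1.5 times with replicate 1 left out are given with and without it.

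Between the sides, 3141 probe sets (22.1% of those tested) differed at an adjusted p below 0.05 in limma. Of these, 1542 (10.9%) were higher in the morning and 1599 (11.3%) in the evening. The counts on the sides were close, but the sizes were not: 458 morning calls and 262 evening calls reached 2-fold, and 37 against 9 reached 8-fold. For both counts, values below the log2 minimum were set to it. The median difference over all tested probe sets was -0.026.

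A difference between sides can also come from a single time that stands far off. Both means of the higher side lay above both means of the other in 998 (64.7%) of the morning calls and 914 (57.2%) of the evening calls. Morning calls had their highest mean at 6am in 812 cases and at 12pm in 713. Evening calls had it at 6pm in 761 cases and at 12am in 751, and their lowest mean at 6am in 959 cases, more often than at 12pm with 601.

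The arrays of the sides did not overlap at all for 442 probe sets that were higher in the morning (3.12% of those tested) and 316 that were higher in the evening (2.23%). A stricter test asked for a difference in each of the 4 pairs of a morning and an evening time, all in one direction. It called 189 probe sets (1.33%), of which 149 (1.05%) were higher in the morning and 40 (0.282%) in the evening. With replicate 1 left out the stricter test called 314 (230 morning and 84 evening), and 175 of the 189 were among them. Of the 189, 105 name no gene in the annotation used here. The named ones stand for 63 morning genes and 19 evening genes.

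**Figure D1:**
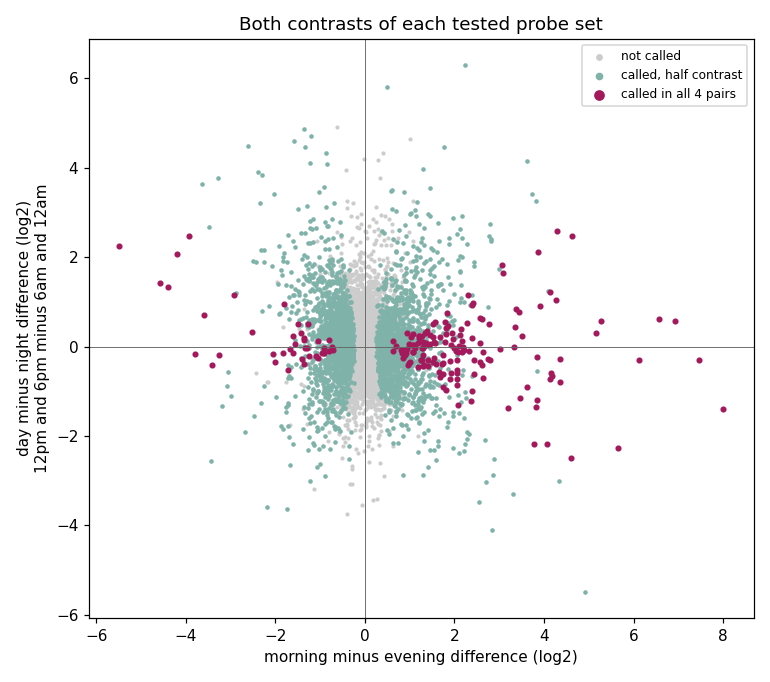
Each point is 1 of the 14185 tested probe sets, with the morning minus evening difference on the x axis and the day minus night difference (12pm and 6pm minus 6am and 12am) on the y axis, both in log2. The 189 probe sets called in all 4 pairs lie away from the vertical axis, 149 to its right and 40 to its left, and in each of them the day minus night difference was the smaller one, as the test requires.

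The day minus night contrast, in which light and time of day cannot be told apart, called 5349 (37.7%). The step from 6am to 12pm called 4881 (34.4%) and the step from 6pm to 12am called 2826 (19.9%). A further contrast, which asks whether the 12pm minus 6pm difference equals the 6am minus 12am difference, called 1957 (13.8%), and 3437 with replicate 1 left out. Of the calls between sides, 542 morning and 497 evening probe sets passed neither the day minus night contrast nor this last one.

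Among the genes called in all 4 pairs, those with no called step within either side describe the pattern most plainly. AT3G21670, annotated as NPF6.4 of the nitrate and peptide transporter family, measured 8.93, 9.51 and 9.46 at 6am and 8.41, 9.34 and 9.22 at 12pm. It measured 6.35, 6.47 and 6.01 at 6pm and 6.56, 6.52 and 6.46 at 12am. The lowest morning array thus stood well above the highest evening array, and the gene was 6.72-fold higher in the morning (log2 difference 2.75, SE 0.17, adjusted p = 5.49e-07). The sides held 99.0% of its variation between times.

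AT1G69480 measured 8.33, 7.46 and 7.59 at 6am, 8.38, 7.69 and 7.62 at 12pm, 4.66, 4.91 and 5.10 at 6pm and 4.29, 3.78 and 4.25 at 12am. Its sides did not overlap, and the log2 difference was 3.34 (SE 0.19, adjusted p = 2.37e-07), or at least 9.89-fold with the evening array under 4 set to 4. AT3G01060 measured 11.37, 10.97 and 11.04 at 6am, 10.86, 10.38 and 10.79 at 12pm, 8.03, 8.03 and 8.51 at 6pm and 8.46, 8.40 and 8.49 at 12am. It was 5.99-fold higher in the morning (log2 difference 2.58, SE 0.13), again with no overlap.

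AT1G80130 measured 10.59, 10.82 and 10.77 at 6am, 9.57, 9.72 and 10.01 at 12pm, 7.18, 7.90 and 8.05 at 6pm and 6.59, 8.04 and 8.09 at 12am. Its replicate 1 was the lowest array at both evening times, and the sides differed by 2.61 (SE 0.25). AT1G18810 measured 10.75, 11.03 and 11.11 at 6am, 10.25, 10.80 and 10.71 at 12pm, 8.29, 8.95 and 8.77 at 6pm and 8.50, 8.39 and 8.44 at 12am, a difference of 2.22 (SE 0.14). AT4G02850 measured 7.08, 6.36 and 6.54 at 6am, 6.90, 6.83 and 6.72 at 12pm, 4.65, 4.59 and 5.45 at 6pm and 4.31, 4.19 and 4.33 at 12am, a difference of 2.15 (SE 0.16). All of these morning genes had every morning array above every evening array. So did all 149 morning calls of the stricter test from which they were picked, so this is no separate result.

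On the evening side the largest such difference belonged to AT4G33980, known as a relative of the cold-regulated gene COR27. It measured 4.06, 5.56 and 5.73 at 6am and 5.77, 5.21 and 4.81 at 12pm, against 9.38, 9.44 and 9.46 at 6pm and 8.84, 7.77 and 7.82 at 12am. The evening arrays were all higher, by 12.1-fold (log2 difference -3.59, SE 0.30, adjusted p = 5.57e-06).

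AT3G22240 measured 9.02, 9.04 and 8.99 at 6am, 9.63, 9.61 and 9.56 at 12pm, 11.81, 11.93 and 11.85 at 6pm and 10.53, 12.40 and 12.41 at 12am. Replicate 1 at 12am was its lowest evening array and still exceeded every morning array, and the fold was 5.70 (log2 difference -2.51, SE 0.27). AT1G56710 measured 4.79, 4.11 and 4.42 at 6am, 4.64, 4.98 and 4.81 at 12pm, 6.02, 5.70 and 6.41 at 6pm and 6.08, 6.26 and 6.60 at 12am, a difference of -1.55 (SE 0.16).

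AT1G48210 measured 7.65, 8.25 and 8.33 at 6am, 8.04, 8.03 and 7.41 at 12pm, 9.27, 9.53 and 9.38 at 6pm and 9.0, 9.33 and 9.22 at 12am, a difference of -1.34 (SE 0.15). AT1G29980 measured 7.97, 7.72 and 7.44 at 6am, 7.64, 7.44 and 8.02 at 12pm, 8.74, 8.69 and 8.83 at 6pm and 8.89, 9.16 and 9.38 at 12am, a difference of -1.24 (SE 0.13). AT5G06610 measured 6.35, 6.39 and 6.37 at 6am, 6.47, 6.27 and 6.29 at 12pm, 7.21, 7.13 and 7.46 at 6pm and 7.45, 7.73 and 7.75 at 12am, a difference of -1.10 (SE 0.09). In each of these evening genes the sides did not overlap, as in all 40 evening calls of the stricter test from which they were picked.

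**Figure D2:**
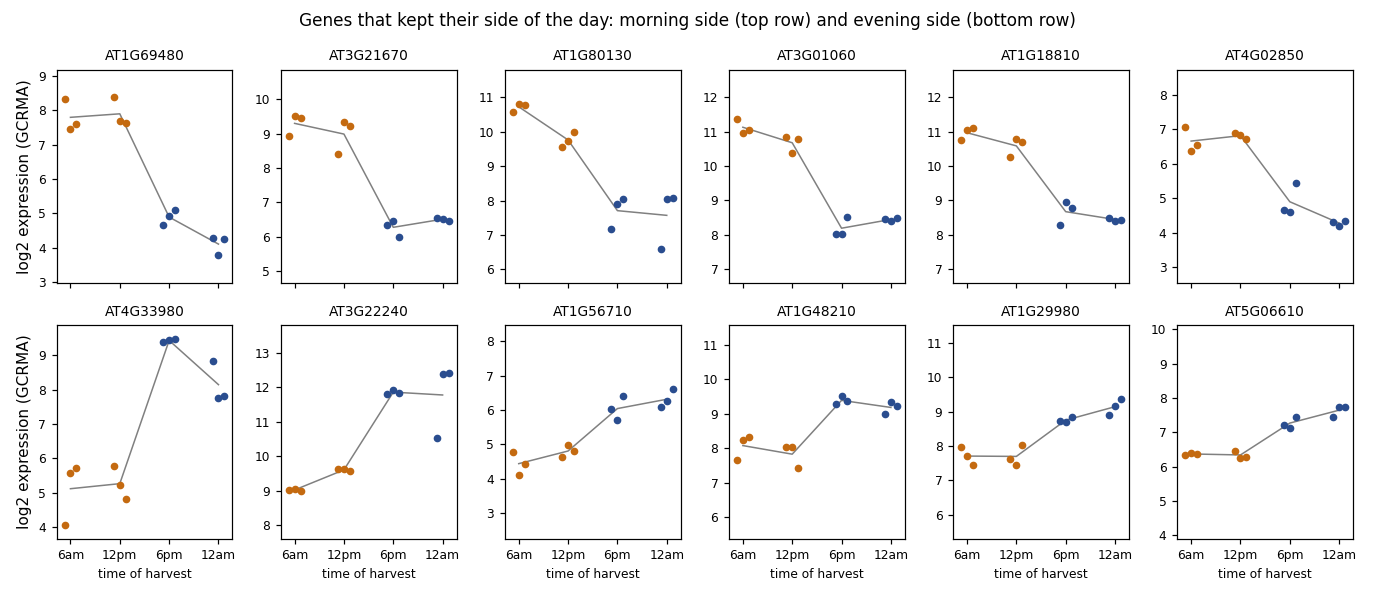
Log2 expression of 12 genes (y axis) at the 4 times of harvest (x axis). Points are single arrays, orange for the morning and blue for the evening, lines join the means of 3 arrays, and each panel spans the same number of log2 units. In the top row every morning array lies above every evening array, as for AT3G21670 with 8.41 or more against 6.56 or less, and in the bottom row the order is turned. The genes were picked from calls of the stricter test, all of which had such a separation.

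Larger differences occurred where the time within a side also mattered. AFR, an F-box protein of phytochrome A signalling, measured 8.86, 9.07 and 9.12 at 6am and 7.35, 8.23 and 8.45 at 12pm. It fell to 3.64, 5.04 and 4.11 at 6pm and 4.74, 4.26 and 4.38 at 12am. It was higher in the morning by a log2 difference of 4.15 (SE 0.24, adjusted p = 3.04e-07), or at least 17.0-fold with the evening array under 4 set to 4.

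AT2G41250 measured 12.31, 12.66 and 12.89 at 6am, 10.08, 10.45 and 10.56 at 12pm, 7.46, 7.75 and 7.54 at 6pm and 8.17, 7.43 and 7.56 at 12am. Its morning level was 14.3-fold higher (log2 difference 3.84, SE 0.16), although 12pm lay 2.26 below 6am. AT1G55960 measured 12.32, 11.84 and 11.74 at 6am, 11.27, 11.16 and 11.52 at 12pm, 8.75, 8.36 and 8.82 at 6pm and 7.93, 8.12 and 7.92 at 12am, 10.0-fold higher in the morning. Neither gene had overlapping sides, but these genes and AFR were named on that condition, so it is no result.

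COR27, a cold-regulated gene that acts in the clock, measured 8.04, 8.90 and 8.78 at 6am, 6.89, 6.59 and 6.51 at 12pm, 11.34, 11.79 and 11.81 at 6pm and 10.51, 9.82 and 9.96 at 12am. It was 9.53-fold higher in the evening (log2 difference -3.25, SE 0.18, adjusted p = 1.84e-07), with no overlap, which was a condition of the choice here too. AT1G17665 measured 3.12, 3.04 and 3.48 at 6am, 3.65, 2.75 and 2.85 at 12pm, 6.85, 6.70 and 6.96 at 6pm and 7.16, 7.04 and 6.91 at 12am. Because its morning means lay below the log2 minimum of 4, its evening level is given as at least 7.66-fold higher.

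AT2G23910 measured 2.16, 2.78 and 2.78 at 6am, 4.08, 4.01 and 3.82 at 12pm, 8.39, 8.92 and 8.37 at 6pm and 7.22, 7.20 and 6.97 at 12am. Its evening level was at least 14.2-fold higher. Among called genes whose arrays did not overlap between sides, and with values under 4 set to 4, the rest of the 10 largest differences each way were as follows. On the morning side they belonged to AT2G15020 (at least 16.8-fold), AT4G31875 (at least 11.2-fold), AT1G13650 (at least 9.24-fold), AT1G69160 (6.98-fold) and THI2.2 (8.51-fold), a thionin. On the evening side they belonged to AT4G34950 (at least 13.1-fold), AT1G07050 (at least 6.76-fold), AT2G25990 (at least 4.52-fold), AT1G78450 (3.98-fold) and AT2G41090 (3.23-fold).

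At the other end stood called genes whose change within a side exceeded that between sides. AT1G26790, a Dof factor, measured 8.60, 8.88 and 8.63 at 6am and was at 2.1, the floor of these data, on the other 9 arrays. COR15A, a cold-induced protein of the chloroplast, had means of 6.60 at 6am, 12.66 at 12pm, 12.79 at 6pm and 9.63 at 12am. Its difference of -1.58 (SE 0.23) thus rested on a low 6am, and 9.7% of its variation between times lay between the sides. AT4G15430, AT4G30650 and AT1G56300 were of the same kind, with 30.1%, 23.7% and 7.6%. Among calls of at least 2-fold, the largest shares between the sides were at the opposite extreme: AT1G75490 had 99.9%, AT4G34150 99.3% and AT4G24050 99.2% on the morning side, and AT1G17665 99.8%, AT3G01660 97.6% and AT3G22240 97.3% on the evening side.

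Of the 7676 genes tested, 1590 (20.7%) passed the test between sides, which is the background for the counts of gene lists. All 6 tested members of the clock and photoperiod list passed the test between sides, 4 higher in the morning and 2 higher in the evening. The latter were COR27 and AT4G33980. SNZ, an AP2 repressor of flowering, measured 7.38, 7.54 and 7.38 at 6am, 8.18, 8.12 and 8.21 at 12pm, 7.17, 7.78 and 7.38 at 6pm and 3.49, 3.71 and 3.55 at 12am. Its morning level was at least 4.23-fold higher, but 6pm lay as high as 6am, so the sides overlapped.

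RVE6 (AT5G52660), a MYB-like clock activator, had means of 6.57, 7.56, 6.32 and 5.97 in order of time and was 1.89-fold higher in the morning (adjusted p = 0.000185). CDF5 (AT1G69570), a Dof repressor of flowering, had means of 7.99, 7.24, 7.08 and 6.84 and was 1.57-fold higher (adjusted p = 0.00948). GI, which acts in photoperiodic flowering and in the clock, lay at 2.1 on all arrays of 6am and 12am. It measured 8.48, 8.75 and 8.02 at 12pm and 7.08, 7.52 and 7.61 at 6pm, a daytime transcript of which 0.7% of the variation lay between the sides. Its call (difference 0.51, adjusted p = 0.0168) was lost with replicates 2 and 3 alone (adjusted p = 0.0709). The arrays at 2.1 added nothing to the difference and no spread to the error, so the call rests on 12pm against 6pm.

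**Figure D3:**
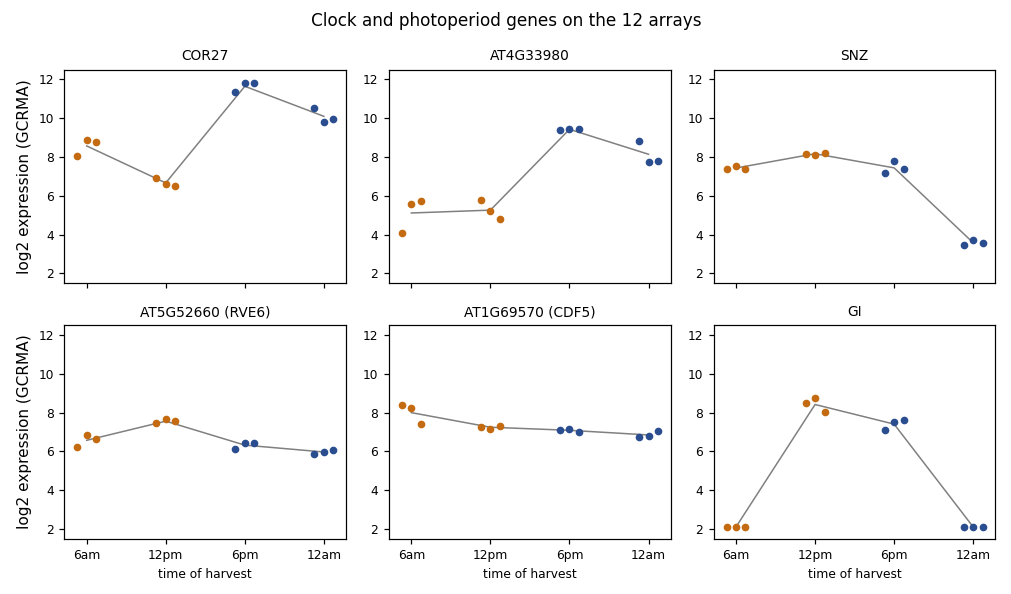
Log2 expression of the 6 clock and photoperiod genes tested (y axis, one scale) at the 4 times of harvest (x axis). Points are single arrays, orange for the morning and blue for the evening, and lines join the means of 3 arrays. COR27 and AT4G33980 lie higher at both evening times, SNZ is low at 12am, and GI is at 2.1 at 6am and 12am.

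Of 7 nuclear photosystem and antenna genes tested, 3 were higher in the morning, 1 in the evening and 3 did not pass. The members of the minor antenna CP29 differed: LHCB4.2 was 2.04-fold higher in the morning (log2 difference 1.03, SE 0.09, adjusted p = 6.85e-06) and passed the stricter test. LHCB4.3 was 2.93-fold higher in the evening (-1.55, SE 0.18), with 9.26, 10.12 and 10.42 at 12am as its highest arrays. LHCB4.1 differed by 0.02 (SE 0.07, adjusted p = 0.868). PSBY (0.33) and PSAN (0.25), both photosystem subunits, were higher in the morning, PSAN losing its call under 11 of 21 alternatives (adjusted p from 0.00197 to 0.118).

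Of 5 chlorophyll and haem synthesis genes, the geranylgeranyl reductase AT1G74470 (0.76, adjusted p = 0.000323) and CHLM (0.28, adjusted p = 0.0372) were higher in the morning, and 3 did not pass. The call of CHLM was lost under 10 of 21 alternatives (adjusted p from 0.0051 to 0.0912). Of the 67 plastid-encoded probe sets 0 passed in limma and 0 had an unadjusted p below 0.05, with a median difference of 0.08. With replicates 2 and 3 alone 5 of the 67 passed. DPE1, which breaks down maltotriose from starch, was 1.75-fold higher in the evening, 1 of 3 starch genes tested. Its means were 8.20, 10.91, 11.19 and 9.54 in order of time, so 12pm lay above 12am and the difference rested on a low 6am. Of 4 Calvin cycle and photorespiration genes only RCA passed (0.30, adjusted p = 0.038), and it lost its call under 9 of 21 alternatives (adjusted p from 0.00381 to 0.0957).

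Several small groups of enzymes held members on opposite sides. The antioxidant and ureide lists were added after values were seen, so opposite sides may be why they were picked. GR1 and GR, the glutathione reductases, were higher in the morning by 0.95 (SE 0.10) and 0.82 (SE 0.13). ATMDAR2, a monodehydroascorbate reductase, was higher in the evening by 2.41-fold (-1.27, SE 0.12) and passed the stricter test. VTC4 (0.29), SAPX (0.13) and TAPX (-0.08), the other antioxidant enzymes tested, did not pass. In ureide breakdown, AAH was higher in the morning (0.82, adjusted p = 0.000213) and ALN in the evening (-0.75, adjusted p = 0.0107), while UGLYAH did not pass (-0.11, adjusted p = 0.482). Both AAH and ALN were higher at 12am than at 6pm, AAH by 1.36 (adjusted p = 0.000102) and ALN by 2.35 (adjusted p = 7.38e-05). AAH had means of 9.69, 8.43, 7.56 and 8.92 in order of time, so its 12am lay above 12pm. ALN had means of 5.49, 5.21, 4.93 and 7.28, so its 6pm lay below both morning times and its difference rested on 12am. Neither passed the stricter test.

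AFR and FHL, which brings phytochrome A into the nucleus together with its homologue FHY1, also lay on opposite sides. Their list was likewise added after values were seen. FHL had means of 3.07, 3.80, 4.15 and 4.48 and was at least 1.25-fold higher in the evening (-0.88, adjusted p = 0.00534). Much of this lay under the log2 minimum, and the call was lost when values under 4 were set to 4 (adjusted p = 0.105).

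**Figure D4:**
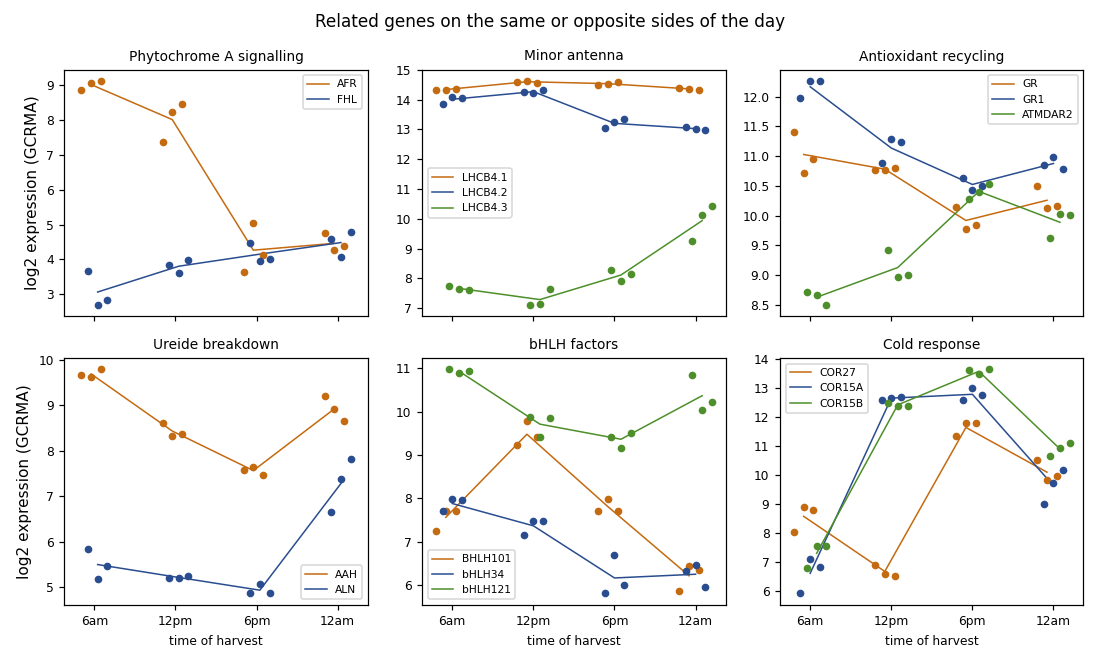
Log2 expression (y axis) of related genes at the 4 times of harvest (x axis), a panel for each of 6 groups. Points are single arrays and lines join the means of 3 arrays, coloured by gene. LHCB4.2 falls from morning to evening as LHCB4.3 rises, GR1 and GR lie higher and ATMDAR2 lower in the morning, and COR15A and COR15B are low at 6am.

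Among transcription factors, 3 of 7 bHLH genes were higher in the morning and 4 did not pass. BHLH101, which acts in iron deficiency, was 2.85-fold higher (1.51, SE 0.14) with its highest arrays at 12pm (9.23, 9.79 and 9.43). bHLH34 was 2.67-fold higher (SE of the log2 difference 0.16) and passed the stricter test. bHLH121 was 1.37-fold higher (adjusted p = 0.0434) and lost its call under 12 of 21 alternatives (adjusted p from 0.00211 to 0.108). The closest relatives of bHLH34 on the list, ILR3, bHLH104 and bHLH115, differed by 0.08, -0.09 and -0.19 and did not pass. Both MYB genes tested were higher in the morning, AT5G47390 (MYBH) by 0.88 and MYBC1 by 0.69. An evening mean lay above a morning mean in AT5G47390 (7.67 at 6pm, 7.29 at 6am) and BHLH101 (7.81 at 6pm, 7.56 at 6am). The same held for bHLH121 (10.37 at 12am, 9.71 at 12pm). Of 7 WRKY and NAC genes 0 passed in limma, 0 had an unadjusted p below 0.05, and 1 passed with replicates 2 and 3 alone. The PPR and DEAD-box list (6 genes tested) and the ethylene list (3) likewise had 0 calls and 0 unadjusted p below 0.05, and the flavonoid list (3) had 0 calls and 1 such p. Lists were filled partly by matching gene symbols and synonyms, so a member, such as COS1 or AT5G46630 here, may share only a name with its list.

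Cold-response genes lay on the evening side in 4 of 6 cases, with none on the morning side and a median of -1.12. Besides COR27 these were COR15B (5.22-fold), COR15A (2.99-fold) and COR47 (1.58-fold), a dehydrin. LTI30 differed by 0.37 (adjusted p = 0.152) and AT1G54410 by -0.12 (adjusted p = 0.528). COR15B, COR15A and COR47 had their lowest mean at 6am (7.29, 6.60 and 10.72), and none of these 3 passed the stricter test. Of 5 heat shock and chaperone genes, 3 were higher in the evening: Cpn60beta4 (-0.71) and Cpn60beta2 (-0.60), plastid chaperonin subunits, and Hsp70-2 (-0.58). Hsp70-2 had means of 6.71, 7.21, 8.72 and 6.36 in order of time, so its difference rested on 6pm, and 12am was its lowest time.

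Cytochrome P450 genes lay on the morning side in 4 of 13 cases and on the evening side in none. These were CYP78A9 (at least 2.76-fold), CYP71B26 (2.46-fold), CYP71B35 (1.99-fold) and CYP71B23, whose difference of 1.27 included means under 4 and lost its call under 4 of 20 alternatives. CYP71B26 had means of 8.06, 12.48, 10.74 and 7.20, so 9.5% of its variation lay between the sides. Among 32 glycosyltransferases, 5 were higher in the morning, 9 in the evening and 18 did not pass. The 4 tested UGT85A genes, a list added after values were seen, were all higher in the evening: UGT85A4 (-1.39), UGT85A2 (-0.98), UGT85A5 (-0.73) and UGT85A3. UGT85A3 had morning means under 4 (2.99 and 3.58), and its difference was -1.46 as measured and -0.74 with values under 4 set to 4. None of these UGT85A genes passed the stricter test. For UGT85A2 12pm (9.44) lay above 6pm (9.35), and for UGT85A5 12pm (7.05) lay above 12am (6.18). UGT85A4 was highest at 12am (8.80), against 6.92 at 6pm and 6.53 at 6am.

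Genes of the cell wall and of secreted enzymes were mixed. Of 18 cell wall genes, 3 were higher in the morning, with EXPB1 (1.15) and XTH32 (0.87) as the largest, and 5 in the evening, with XTH33 (-1.74) and EXLB1 (-1.43). EXPB1 had means of 3.30, 6.26, 3.92 and 3.34 in order of time, so it was high at 12pm only and under the log2 minimum of 4 otherwise. XTH33 had means of 4.19, 2.67, 2.29 and 8.06 and was thus a midnight transcript. Of 14 serine carboxypeptidase-like genes, 5 were higher in the evening and 1 in the morning (scpl48, adjusted p = 0.0472, lost under 11 of 21 alternatives). The evening genes were led by SCPL49 (2.55-fold), SCPL34 (2.42-fold) and scpl35 (2.28-fold), with scpl29 (-0.34) losing its call under 8 of 21 alternatives. SCPL34 had means of 8.58, 7.93, 8.48 and 10.59 in order of time, so only its 12am lay above both morning times. Of 7 tubulins, TUB9 (-1.03), TUB5 (-0.53) and TUB7 (-0.42) were higher in the evening and TUA1 (0.74) in the morning, TUB9 losing its call with no filter on dim probe sets (adjusted p = 0.0582). The carboxypeptidase and tubulin lists were also added after values were seen.

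**Figure D5:**
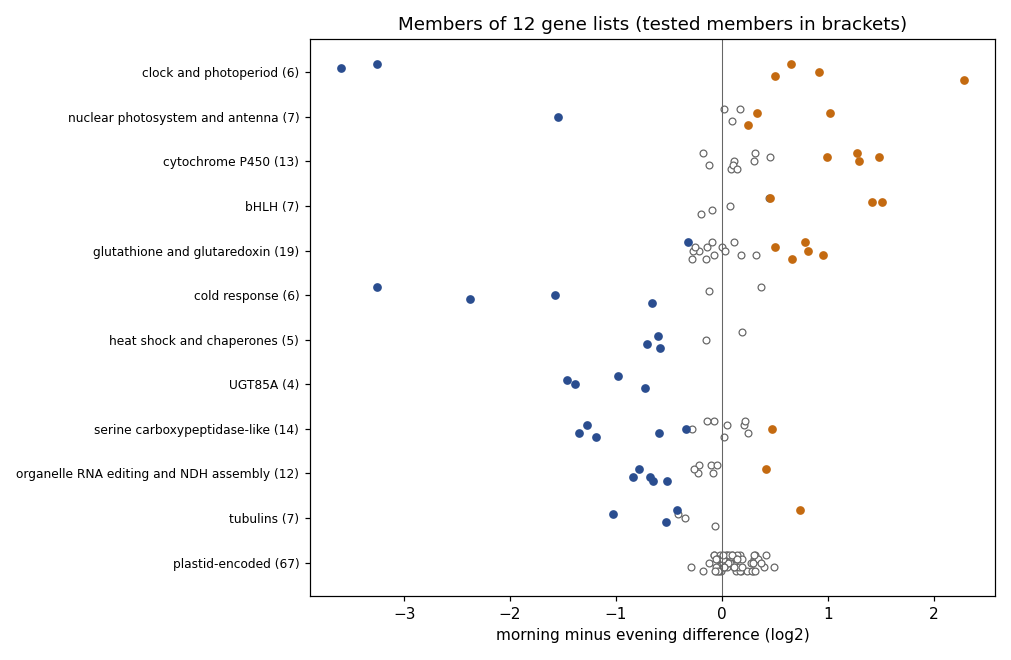
Morning minus evening difference in log2 (x axis) of the tested members of 12 gene lists (y axis). Filled points passed at an adjusted p below 0.05, orange for higher in the morning and blue for higher in the evening, open points did not, and the vertical spread within a list has no meaning. Called points of the cold-response list lie left of 0 and those of the P450 list right of 0, and the 67 plastid-encoded points are all open.

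Organelle RNA editing and NDH assembly factors, an added list, were higher in the evening in 5 of 12 cases and in the morning in 1. CRR22 (-0.67, SE 0.13) and CRR28 (-0.52, SE 0.13), pentatricopeptide proteins that edit plastid transcripts, held 93.8% and 99.3% of their variation between the sides. OTP81 (-0.84), CRR42 (-0.78) and OTP84 (-0.65) were the others. OTP81 had means of 5.78, 5.10, 6.80 and 5.74 and OTP84 of 5.45, 6.17, 7.00 and 5.93 in order of time. In both, 6pm was highest and 12am lay below a morning time. NdhS (0.42), a subunit of the thylakoid NDH complex, was the morning member. NdhN, another subunit of it, was higher in the evening (-0.46, adjusted p = 0.00351).

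Among carbon enzymes, PPDK, which makes phosphoenolpyruvate, was 2.28-fold and ICL, the isocitrate lyase of the glyoxylate cycle, 2.08-fold higher in the morning. PPDK had means of 9.78, 8.53, 7.20 and 8.72, with its lowest mean at 6pm. ICL had means of 7.57, 7.74, 7.31 and 5.89, so its difference rested largely on a low 12am. ALDH2C4, an aldehyde dehydrogenase that makes ferulate and sinapate, was 1.96-fold higher in the evening (-0.97, SE 0.12), passed the stricter test and held 97.6% of its variation between the sides. SAG29, also named SWEET15 as a sugar transporter, was at least 2.29-fold higher in the morning, and SWEET1 1.36-fold higher in the evening. The means of SAG29 were 4.03, 6.36, 3.16 and 3.46, so only 12pm lay well above the log2 minimum of 4. The list of PPDK and ICL, the aldehyde dehydrogenase list and the SWEET list were added after values were seen.

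Further genes with their own symbol and large differences were TRY (at least 4.89-fold), which represses trichome fate, SIS (4.35-fold), SFP2 (at least 3.51-fold), BETA-VPE (3.19-fold), M17 (3.17-fold) and BGLU40 (2.85-fold) on the morning side. On the evening side they were Fes1B (at least 4.03-fold), SUFE2 (3.34-fold), PDC2 (2.49-fold), which makes acetaldehyde from pyruvate, and CHL (2.44-fold), the plastid lipocalin. Fes1B measured a mean of 4.28 at 6am and 9.64, 9.71 and 8.25 afterwards, and PDC2 7.00 at 6am and 9.90, 9.83 and 9.71. For both, as for COR15A, the side difference rested on a low 6am, whereas CHL and BGLU40 did not overlap between sides. TRY had means of 8.71, 7.49, 4.43 and 7.14 in order of time, so its fold rested largely on a low 6pm. Its sides overlapped, with 1 evening array at 7.66 and 1 morning array at 7.03.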

How the data were processed

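Per the submitters' processing notes, the authors used GCRMA, R 3.1 and affy 1.42.3, and the deposited table gives log2 values per probe set, which were used unchanged. GCRMA subtracts a modelled background, normalizes between arrays and summarises probes. The floor of the table was 2.1, with 29.3% of values no more than 0.1 above it, and folds with an array of the lower side under 4 are bounds computed with 4 in its place. Arrays have no read depth, and their number limits the precision.

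A model with 4 times was fitted to 12 arrays with limma 3.58.1 in R 4.3.3 (lmFit, eBayes), with Benjamini-Hochberg adjustment over 14185 probe sets and calls at an adjusted p below 0.05. The stricter test took the largest p of the 4 pairs of times. The procedure was tested on simulated data. Of the non-control probe sets 13513 name 1 gene, 503 several and 8730 none. The brightest probe set stood for a gene, and 7676 genes were tested.

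Members and gene lists were chosen with earlier results of these data known, and some lists were added after values were seen. Named genes were the 10 largest non-overlapping differences each way, the 6 largest each way in all 4 pairs with no called step within a side and no mean under 4, the 3 each way with the largest share of variation between sides among calls of at least 2-fold, the 3 each way with the largest change within a side, the clock list, up to 2 calls each way of other lists, and, added later, genes with their own symbol and members of added lists.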

Additional observations from a re-analysis of the deposited data

Results flagged for a closer look

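Arrays per time were 3, too few for a test of single outlying arrays. The difference between sides was compared between the pair of times in the light (12pm minus 6pm) and the other pair (6am minus 12am). Among the 41 called genes of the first 5 parts of the naming rule, these pairs differed for 15 at an adjusted p below 0.05 in limma. These genes were chosen partly for large differences or large changes within a side, so their number is a description and is not set against the background. For AT1G07050 the pairs gave -5.47 and -2.94, a gap of -2.53 (adjusted p = 4.96e-05), or -3.34 with values under 4 set to 4. AT1G26790 gave 0.00 and 6.60, a gap of -6.60 (adjusted p = 9.83e-10), or -4.70 with values under 4 set to 4. The 12pm, 6pm and 12am arrays of AT1G26790 were at the floor and added no spread to the error. Its p-value therefore overstates the precision, and the gap rests on 6am alone. AT1G55960 gave 2.67 and 3.98, a gap of -1.31 (adjusted p = 0.00744). For AT1G56300 the pairs gave 0.07 and -2.76, a gap of 2.83 (adjusted p = 4.92e-05). AT1G69160 gave 3.82 and 1.79, a gap of 2.03 (adjusted p = 0.00182). AT1G78450 gave -0.76 and -3.23, a gap of 2.47 (adjusted p = 0.00116). For AT2G41250 the pairs gave 2.78 and 4.90, a gap of -2.12 (adjusted p = 0.00149). AT4G15430 gave 1.46 and 4.22, a gap of -2.76 (adjusted p = 0.00734), or -3.90 with values under 4 set to 4. AT4G30650 gave -1.32 and -3.91, a gap of 2.59 (adjusted p = 0.0143). For AT4G31875 the pairs gave 3.49 and 4.63, a gap of -1.14 (adjusted p = 0.0121), or -2.29 with values under 4 set to 4. AT4G34950 gave -1.79 and -6.05, a gap of 4.26 (adjusted p = 4.7e-05), or 3.85 with values under 4 set to 4. COR15A gave -0.13 and -3.03, a gap of 2.90 (adjusted p = 0.00216). For COR27 the pairs gave -4.98 and -1.53, a gap of -3.45 (adjusted p = 0.000178). GI gave 1.01 and 0.00, a gap of 1.01 (adjusted p = 0.0269), with its 6am and 12am arrays at the floor and without spread. SNZ gave 0.73 and 3.85, a gap of -3.12 (adjusted p = 1.31e-05), or -2.70 with values under 4 set to 4. The pairs had the same direction in 12 of the 15, 1 pair was at 0 in 2, and AT1G56300 had opposite directions. For genes named because their arrays did not overlap between sides, the shared direction followed from that choice and is no result.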

How the results depend on the processing

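Of 2824 recomputed differences of the 135 called named genes, 2722 kept direction and call, 102 kept the direction and lost the call, in 16 genes, and 0 reversed; PDF1.4, not called, was called at -0.76 with replicates 2 and 3 alone. With those replicates alone 132 of the 135 were called, and 88.9% of the 4633 calls had the same direction in replicate 1, against 72.5% of all probe sets. Counts moved by over 1.5 times as follows; the cause was not tested. With no filter on dim probe sets the stricter test called 124 (21 evening). Under array weights the sides gave 5634 calls (2714 morning, 2920 evening), the stricter test 452 (333 and 119), 12pm against 6am 7611, 12am against 6pm 4666 and the contrast of the pairs in and out of the light 4588. Replicates 2 and 3 alone gave 314 (230 and 84) and, for the contrast of the pairs in and out of the light, 3437. At an adjusted p below 0.01, which by construction calls fewer, the sides gave 1869 (987 and 882) and the stricter test 99 (88 and 11). A fit with the sides as a 2-level factor, which leaves changes within a side in the error, gave 923 (568 and 355), and included all 189. Leaving out 1 array gave 2453 to 3677 calls between sides (1237 to 1830 morning, 1216 to 1847 evening), 124 to 234 in the stricter test (103 to 176 and 20 to 58) and 1212 to 2522 for the contrast of the pairs in and out of the light; the fewest stricter calls came without 12pm replicate 3 or 12am replicate 3 (124 each). Same-numbered arrays correlated by 0.0554 to 0.6485 in their deviations, and 11 of 12 arrays deviated most like one of their own number, a hint from the data and not the design. With the replicate number as a block, the sides gave 4630 calls (2421 evening), including all 3141, the stricter test 286 (73 evening), 12am against 6pm 4313 and the contrast of the pairs in and out of the light 3627. Promoter motif shares were not run, because no promoter sequences were used here. Values near the floor limit the dim genes.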

Other observations

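Genes next to each other on a chromosome were both called in 143 of 2415 neighbouring tested pairs (5.92%), with 101 pairs on the same side and 42 on opposite sides. Over all 7676 genes tested, 1590 (20.7%) were called, 782 higher in the morning and 808 in the evening. Pairs of genes that are not neighbours were not counted, so whether calls cluster along chromosomes was not tested. The largest pair by its smaller member was AT3G21660 and AT3G21670, with differences of 1.84 and 2.75. AT2G41250 (3.84), M17 (1.67) and M10 (at least 1.53-fold, with its evening means under 4) formed a run on the morning side. COR15B (-2.38) and COR15A (-1.58), and AT4G30650 (-2.61) and AT4G30660 (-1.50), were evening pairs. Near-identical copies can share probes, so such pairs are uncertain as separate measurements. The neighbours were chosen after their values were seen.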
